A study of Homo sapiens with 9 samples.

Results

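The synaptic vesicle and SNARE genes were taken as every array probe whose gene name belongs to the synaptotagmins, synapsins, syntaxins, syntaxin-binding proteins, VAMPs, SNAP-25 relatives, synaptophysin, synaptogyrins, SV2 proteins, RIMs or complexins. The rule reads gene names and no measured value, though it was set with earlier results of these data known. They made up 104 probes of 69 genes among the 42405 non-control probes of the array. RNA came from hNT2 cells, an established human line of embryonal carcinoma origin whose cells take on neuronal features under retinoic acid. The cells behind all 9 arrays grew for 4 days (96 h) in differentiation medium with 10 µM retinoic acid, so the control cells carried that treatment too. Of these, 3 were controls, 3 also received 1 µM paraoxon and 3 also received 5 µM mipafox. Both compounds are organophosphorus esterase inhibitors, and mipafox is the one of the pair known to cause delayed neuropathy. The labels call the replicates biological, while the methods of the study call them technical, so every SD, SE and p below may measure technical spread alone. The question was whether either compound changed the RNA of the release machinery while these cells took their first steps towards neurons. The model is 1 cell line at an early time, long before functional synapses would form.

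Neurotransmitter is released when a vesicle SNARE, VAMP, zips together with the membrane SNAREs syntaxin and SNAP-25 and pulls the vesicle onto the plasma membrane. Proteins of the Munc18 family hold syntaxin ready, complexins clamp the half-built bundle, synaptotagmins sense the calcium that triggers fusion, RIMs place vesicles at the active zone, and synapsins keep the reserve pool. Many members of the same families serve other routes in every cell, such as Golgi and endosomal syntaxins, and SNAP91 (AP180) shares only its name with the SNAREs, being a clathrin adaptor of vesicle retrieval.

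Levels below are log2 signals with the array's own 75th percentile set to 0, so a value of -2 lies 2 log2 units below that percentile. Where 3 values are given for a treatment, they are its replicates A, B and C in that order. Probes bind with different strength, and no probe's level was set against another's. The 3 control arrays and mipafox A lay on slide 1, while slide 2 held all 3 paraoxon arrays with the B and C replicates of mipafox. Paraoxon and control therefore shared no slide, and what the slide did and what paraoxon did cannot be told apart within a slide. In a fit with slide as a block, the comparison with control rests on mipafox A, the 1 exposed array that shares a slide with the controls. For every tested member the mipafox value of that fit equals mipafox A minus the control mean, and the paraoxon value adds to it the difference of paraoxon from mipafox on slide 2. Standard errors and p-values of that fit therefore hang on 1 array and are given as descriptions. In it the median of all probes itself moved to 0.10 for paraoxon. In bulk RNA, fewer cells of a type and less RNA per cell cannot be told apart. The retinoic acid response genes were read on these arrays, with 7 of 8 genes well above background on all 9, as were 9 of 11 neuron markers (DCX, MAP2 and TUBB3 among them) and all 9 measured pluripotency markers. The neuron markers STMN2 and ELAVL3 were above background on 2 and 4 arrays. Also above it on all 9 were 5 of 6 neural progenitor, 3 of 4 mesoderm and fibroblast, 3 of 3 neuroendocrine and 1 of 3 endoderm markers. Of all probes 62.1% reached that mark, so detection alone does not name a cell type. Of the 4 astrocyte markers, ALDH1L1 and S100B had a probe above background on all 9 arrays, AQP4 on 1 and GFAP on none. None of the marker probes passed the adjusted test in either comparison.

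RNA of most of the machinery was already detected. A probe counts as detected when the scanner software called it well above background. Of the 69 genes, 58 had a probe detected on all 9 arrays, and 81 of the 104 probes (77.9%) reached that mark, beside 62.1% of all probes. No array detected 9 of them (8.65%), beside 22.7% of all probes. All 12 VAMP probes, all 11 probes of the internal syntaxins and all 3 of SNAP23, SNAP25 and SNAP29 were detected on every array. The neuronal forms were among them: SNAP25 (the synaptic SNAP), STX1A, VAMP1, VAMP2, SYT1, SYN1, SV2A, RIMS1, CPLX1 and CPLX2 each had a probe detected on all 9 arrays.

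The 6 genes with no detected probe on any array were SYT4, SYT5, SYT10, SYT16, CPLX3 and CPLX4. The last are the complexins of retinal ribbon synapses. Another 5 genes were detected on some arrays. SYP, which encodes the vesicle protein synaptophysin, was detected on 6 of 9 arrays, on all 3 controls, 1 paraoxon and 2 mipafox arrays. SYT8 was detected on control C alone, at -5.51, where its other arrays lay between -9.30 and -7.23. STX19 was detected on 2 arrays, and SYT9 and SV2C on 8 each. Probes of a single gene could differ: of the SYT1 probes, A_23_P36795 was detected on all 9 arrays and A_33_P3237201 on none.

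**Figure D1:**
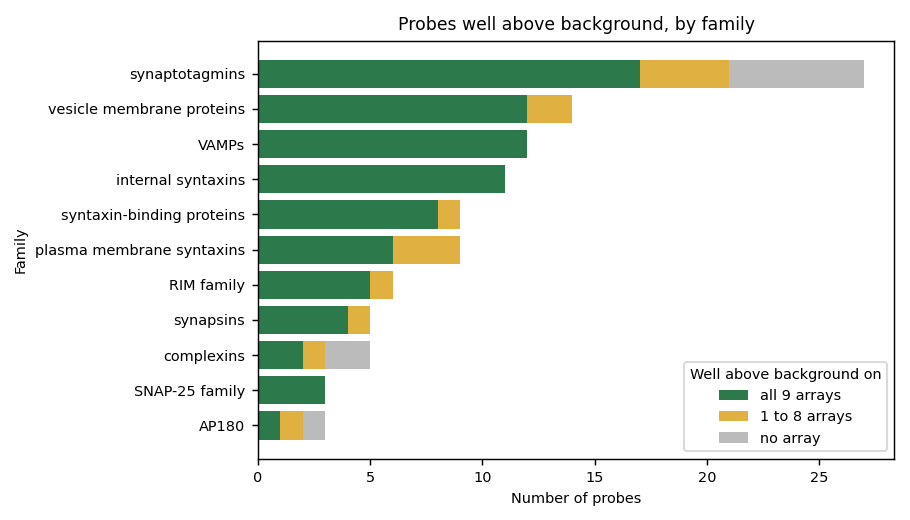
Number of probes of each family (horizontal axis) that were well above background on all 9 arrays, on 1 to 8 arrays or on no array. Every VAMP, internal syntaxin and SNAP-25 family probe was detected on all 9 arrays, while 6 of 27 synaptotagmin probes and 2 of 5 complexin probes were detected on none.

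Promoter sequence from RefSeq (GRCh38.p14) was at hand for 53 of the 69 genes. It is shown for SYN1, a textbook target of the neuronal silencer REST, and for a detected and an undetected member. The window is the 250 bases before the transcript start. In SYN1 (chrX:47619858-47620107, minus strand) the first run of capitals marks the core of the RE1 element that REST binds, searched with any bases allowed in place of the GC that follows CAGCACC, and the second marks TGACGTCA, the cyclic AMP response element.
SYN1: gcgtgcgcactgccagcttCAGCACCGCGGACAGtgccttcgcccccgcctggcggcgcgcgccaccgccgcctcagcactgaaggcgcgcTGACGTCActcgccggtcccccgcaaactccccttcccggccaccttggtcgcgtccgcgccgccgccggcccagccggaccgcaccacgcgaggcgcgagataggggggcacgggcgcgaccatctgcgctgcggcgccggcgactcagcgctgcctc
Searched on both strands, the RE1 core was found in 1 of the 81 member promoters, that of SYN1, and in 0.0456% of all 35116 promoters. The cyclic AMP element was found in 3 member promoters (STX12, STXBP3 and SYN1) and in 1.65% of all, and the motifs did not overlap. A match describes the letters only. The RE1 letters searched were those of the SYN1 site apart from the GC, so its match was fixed in advance. Sites with other letters, sites outside the window and the 16 genes without promoter sequence, SNAP25 among them, were not searched. The SYN1 probe was detected on all 9 arrays, at levels between -4.85 and -3.65.

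In the next pair the capitals mark CpG dinucleotides. SYT14 (chr1:209937967-209938216, plus strand), detected on all 9 arrays, held 39, and CPLX4 (chr18:59318650-59318899, minus strand), detected on none, held 1.
SYT14: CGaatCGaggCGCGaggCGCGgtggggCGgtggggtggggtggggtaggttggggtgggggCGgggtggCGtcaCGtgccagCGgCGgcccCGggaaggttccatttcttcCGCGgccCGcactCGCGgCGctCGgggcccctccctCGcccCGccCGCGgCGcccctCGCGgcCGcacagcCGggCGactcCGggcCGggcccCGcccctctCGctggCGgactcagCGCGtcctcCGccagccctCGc
CPLX4: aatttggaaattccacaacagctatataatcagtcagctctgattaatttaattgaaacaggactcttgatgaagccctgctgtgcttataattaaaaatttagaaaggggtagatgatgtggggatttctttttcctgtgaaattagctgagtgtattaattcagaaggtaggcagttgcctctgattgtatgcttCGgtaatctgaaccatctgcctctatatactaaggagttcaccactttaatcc
The pair is not a rule for the family. Taking each gene's most CpG-rich start, the 43 genes detected on all arrays held between 3 and 48 (median 24) and the 6 undetected genes between 1 and 29 (median 16), beside a median of 12 over all genes. SYT10, undetected, had 29, and SV2A, detected, had 3.

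No synaptic vesicle or SNARE probe changed with either compound at an adjusted p under 0.05. Of the 104 probes, 88 probes of 61 genes passed the filter for testing, which required a treatment whose arrays all detected the probe. With paraoxon, limma called 0 of the 88 at that threshold (0% of the 29134 probes tested) and 11 at an unadjusted p under 0.05, or 12.5%, where all probes gave 13.3%. Of the 11, 4 were higher (7.31% of all probes) and 7 lower (6.02% of all probes), and 1, SYT14, was also beyond a fold change of 2 (2.19% of all probes). With mipafox it called 0 (0% of all) and 7 at the unadjusted p, or 7.95%, where all probes gave 6.96%. Of the 7, 2 were higher (2.96% of all probes) and 5 lower (4% of all probes). The members' counts were thus near the background of the arrays. The smallest adjusted p of a member was 0.106 with paraoxon and 0.426 with mipafox. Paraoxon and mipafox were compared with the same control arrays, so their values below are given side by side and not as independent results.

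More member probes lay below control than above it with paraoxon. There 58 of 88 member probes (65.9%) lay below control, beside 48.1% of all probes, and the median member log2 fold change was -0.07 against 0.01 for all. Members ran from -1.0 (SYT14) to 0.67 (SYNGR4). The fit with slide as a block gave a member median of 0.02, against 0.10 for all probes. With mipafox 46 of 88 (52.3%, beside 49.8% of all) lay below control, the median was -0.03 against 0.00 for all, and members ran from -0.97 (RIMS2) to 0.55 (SYT6). Probes of a gene share its RNA, so these counts are not of independent units, and they take the sign of each fitted value whatever its standard error.

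The width of the intervals differed between fits. For 72 of 88 member probes (81.8%, beside 77.5% of all) the 95% interval of the paraoxon log2 fold change lay inside -1 to 1, and for 73 (83%, beside 82.2%) that of mipafox did. With slide as a block only 34 (38.6%, beside 38.9%) and 56 (63.6%, beside 65.6%) did. For the 3 paraoxon and 3 control arrays, 19 member probes (21.6%, beside 23.4% of all) had no overlap between the groups, 8 with all paraoxon arrays higher (12.4% of all probes) and 11 lower (11.1% of all probes). For mipafox 9 did (10.2%, beside 11.8%), 3 higher (5.34% of all probes) and 6 lower (6.46% of all probes).

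**Figure D2:**
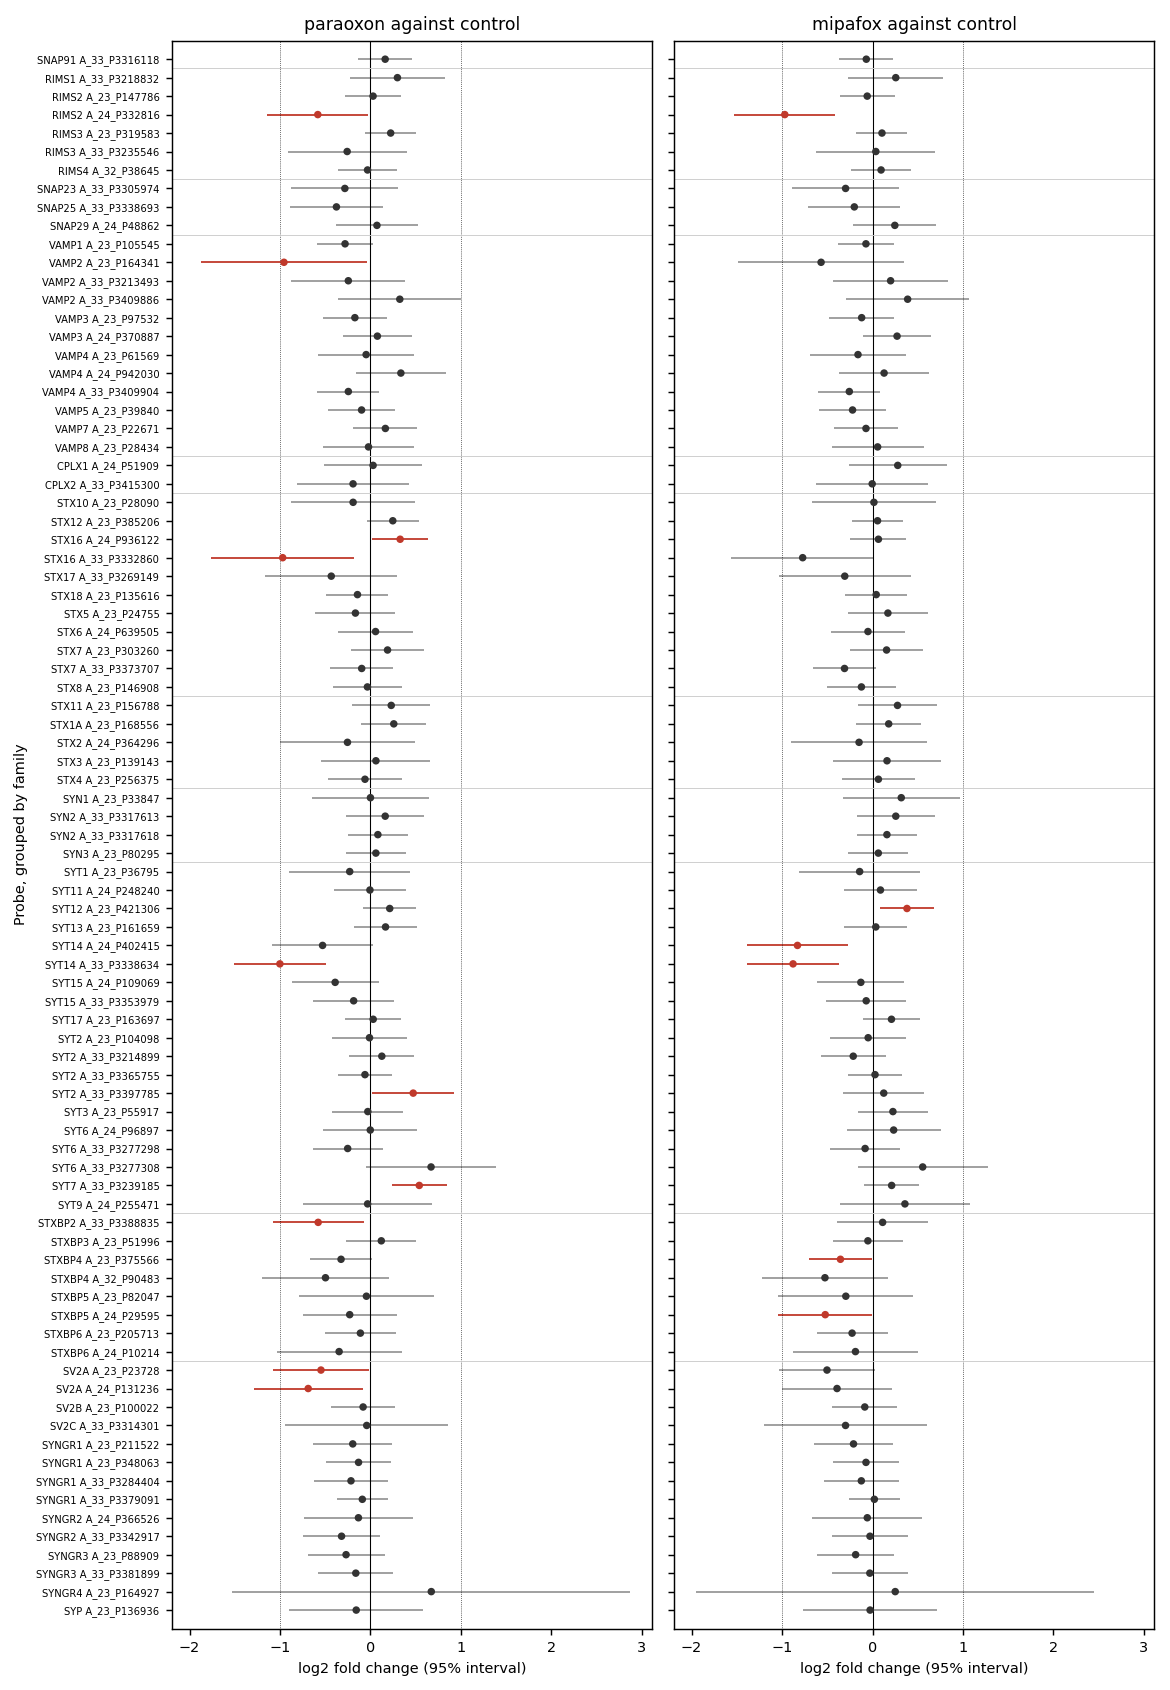
Log2 fold change against control (horizontal axis) with its 95% interval for 85 of the 88 tested probes, grouped by family, for paraoxon (left) and mipafox (right). Red marks an unadjusted limma p under 0.05 (10 and 6 of the probes drawn), and dotted lines mark a change of 1 log2 unit. Most intervals cross 0, and that of SYNGR4 is the widest.

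SYT14 had the lowest log2 fold changes of the synaptotagmin family in both comparisons. It encodes an atypical synaptotagmin that is thought not to bind calcium. Its probe A_33_P3338634 (hg19 chr1:210334193-210334252) read -2.51, -2.70 and -2.72 in controls. It read -3.48, -3.42 and -4.04 on the paraoxon arrays and -3.15, -3.90 and -3.52 on the mipafox arrays. Every exposed array lay below every control array. The log2 fold change was -1.0 (SE 0.23, adjusted p = 0.11) with paraoxon and -0.88 (SE 0.23, adjusted p = 0.43) with mipafox. The block fit gave -0.44 (95% interval -1.26 to 0.38) and -0.51 (-1.15 to 0.14).

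The other SYT14 probe, A_24_P402415 (hg19 chr1:210335095-210335154), lies nearby on the same strand. It read -3.41, -3.08 and -3.23 in controls, then -3.57, -3.38 and -4.35 with paraoxon and -3.94, -4.31 and -3.95 with mipafox. Its mipafox arrays all lay below the controls, and its paraoxon arrays overlapped them. The log2 fold changes were -0.53 (SE 0.25) and -0.83 (SE 0.25), the latter at an adjusted p of 0.49. The first 30 bases of both probes show that they read different stretches.
SYT14 A_33_P3338634: gccctatttcagctttctgatgtgacactc
SYT14 A_24_P402415: ctggtcccttgcaagtcttctagacaggtt

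SYT7, a slow calcium sensor of asynchronous release and lysosome fusion, stood higher with paraoxon. Its probe (hg19 chr11:61282794-61282853) read -2.06, -2.01 and -1.82 in controls and -1.56, -1.33 and -1.38 on the paraoxon arrays. On the mipafox arrays it read -1.68, -1.76 and -1.82. All paraoxon arrays were above all controls. The log2 fold change with paraoxon was 0.54 (SE 0.13, unadjusted p = 0.0029, adjusted p = 0.13), and with slide as a block it was 0.65 (SE 0.23, adjusted p = 0.61). With mipafox it was 0.21 (SE 0.13).

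Among the other synaptotagmins, SYT12 had the smallest unadjusted p of those higher with mipafox. It read 0.19, 0.04 and 0.33 in controls and 0.52, 0.56 and 0.62 with mipafox, with no overlap, a log2 fold change of 0.38 (SE 0.13) and an adjusted p of 0.58. SYT1, the fast calcium sensor of synaptic vesicles, averaged -2.24 ± 0.29 (SD, n = 3) in controls, -2.47 ± 0.57 with paraoxon and -2.39 ± 0.35 with mipafox. Its differences of -0.23 and -0.14 were smaller than these spreads, with 95% intervals of -0.90 to 0.44 and -0.81 to 0.53. SYT2, its close relative, had 4 tested probes, of which A_33_P3397785 gave 0.47 (unadjusted p = 0.042) with paraoxon and the other three between -0.06 and 0.13. Over the 19 synaptotagmin probes tested, the median was -0.01 with paraoxon and 0.04 with mipafox. SYT15 has a near-identical copy in the genome, and its 2 probes cannot be assigned to either.

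The membrane SNAREs gave no call. STX1A averaged -2.33 ± 0.20 (SD, n = 3) in controls, -2.07 ± 0.10 with paraoxon and -2.15 ± 0.19 with mipafox, and its 95% intervals of -0.10 to 0.62 and -0.18 to 0.54 left out a change of 1 log2 unit. SNAP25 read -0.26, -0.16 and -0.25 in controls, -0.61, -0.70 and -0.49 with paraoxon and 0.09, -0.45 and -0.91 with mipafox. Its paraoxon arrays all lay below the controls, at a log2 fold change of -0.38 (SE 0.23, adjusted p = 0.53). In the block fit that value turned to 0.39 (SE 0.27). The mipafox array on slide 1 was the highest SNAP25 reading of the 9.

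Some genes had probes that disagreed widely. VAMP2 (synaptobrevin 2, the vesicle SNARE of most synapses) had 3 tested probes. A_23_P164341 read 0.90, 0.25 and -0.31 in controls, then -0.28, -1.31 and -0.43 with paraoxon and 0.23, -0.13 and -0.96 with mipafox. Its paraoxon log2 fold change was -0.96 (SE 0.41, unadjusted p = 0.042, adjusted p = 0.35), the groups overlapped, and the block fit gave -0.18 (SE 0.71). The other probes gave -0.24 (SE 0.28) and 0.32 (SE 0.30) with paraoxon, and the set gave -0.57, 0.20 and 0.39 with mipafox, or -0.05, -0.08 and 0.29 in the block fit. The probe with the lowest fold change had a GC content of 55%, beside 48.3% and 43.3%, and any part of this in the result was not tested. The probes lie within hg19 chr17:8062792-8064986, on the minus strand, and their first 30 bases were as follows.
VAMP2 A_23_P164341: aaacggggatgcttgcccctctccaggact
VAMP2 A_33_P3213493: ctcccagtttgaaacaagcgcagccaagct
VAMP2 A_33_P3409886: atctgctatgcaatagtccctctcctttcc

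VAMP1, which serves motor nerve terminals, read -1.76, -1.91 and -1.89 in controls and -2.03, -2.08 and -2.30 with paraoxon, with no overlap, at -0.28 (SE 0.14, adjusted p = 0.42). With mipafox it gave -0.07 (SE 0.14). VAMP3, VAMP5, VAMP7 and VAMP8, the SNAREs of recycling, muscle, lysosomal and secretory routes, gave values between -0.22 and 0.27 in both comparisons. One of the VAMP3 probes, A_23_P97532, passed the unadjusted test with slide as a block, at -0.55 (SE 0.24, adjusted p = 0.61) with paraoxon. VAMP4, a Golgi SNARE, had a probe (A_24_P942030) at 0.34 (SE 0.22) with paraoxon that turned to -0.42 (SE 0.26) with slide as a block.

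STX16, a syntaxin of transport from endosomes to the Golgi, had probes that pointed in opposite directions with paraoxon, each at an unadjusted p under 0.05. A_33_P3332860 (hg19 chr20:57246274-57246333) read -2.39, -2.88 and -3.49 in controls, then -3.40, -4.32 and -3.94 with paraoxon and -3.28, -3.55 and -4.24 with mipafox. A_24_P936122 (hg19 chr20:57254353-57254412) read 0.10, 0.30 and 0.41 in controls and 0.45, 0.68 and 0.67 with paraoxon. The paraoxon log2 fold changes were -0.97 (SE 0.35, adjusted p = 0.27) and 0.33 (SE 0.14, adjusted p = 0.34). The block fit gave -0.36 (SE 0.62) and 0.33 (SE 0.24).
STX16 A_33_P3332860: gagagattcgccagattgtacagtccattt
STX16 A_24_P936122: gttttatcctagctaatggcttcttaaagg

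Of 20 member genes with at least 2 tested probes, 10 had probes of opposite sign with paraoxon and 8 with mipafox. These counts take the sign of each fitted value whatever its standard error. VAMP3, for example, gave -0.17 (SE 0.16) and 0.08 (SE 0.17) with paraoxon. The share among all genes with several probes was not computed, so the counts do not show that members disagree more than other genes. In 7 genes, STX16, VAMP2, SYT6, RIMS2, VAMP4 and SYT2 among them, probes differed by more than 0.5 in at least 1 comparison. The probes of SYT14, SV2A, STXBP4, STXBP5, STXBP6, SYNGR2, SYNGR3 and SYT15 had fitted values below 0 in both comparisons, and those of SYN2 above 0, many of them smaller than their standard errors. No exon annotation of the files' build was used here.

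**Figure D3:**
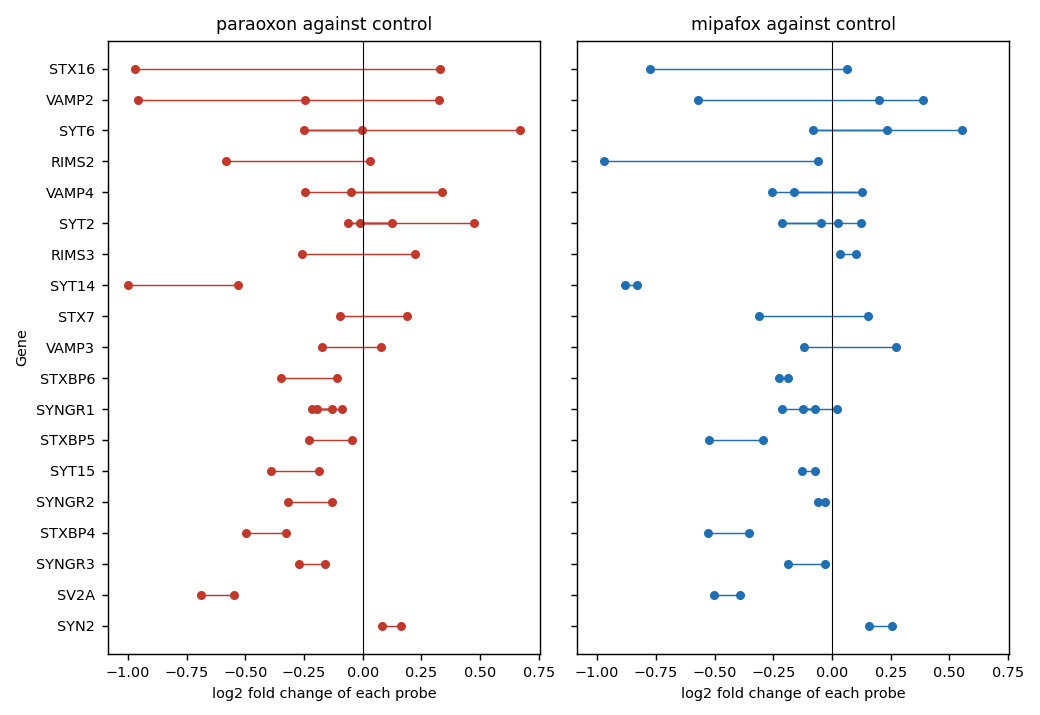
Log2 fold change against control (horizontal axis) of each tested probe for 19 of the 20 member genes with 2 or more, for paraoxon (left) and mipafox (right), ordered by the size of the disagreement. Each point is 1 probe and a line joins the probes of a gene. STX16 and VAMP2 cross 0 with spans of 1.30 and 1.28 with paraoxon, while the SV2A probes both lie to the left.

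SV2A, a vesicle glycoprotein and the target of the drug levetiracetam, had log2 fold changes below 0 on both of its probes. A_23_P23728 read 0.76, 0.53 and 0.59 in controls, then 0.23, 0.50 and -0.49 with paraoxon and 0.24, 0.08 and 0.05 with mipafox. All 6 exposed arrays lay below all 3 controls. A_24_P131236 read -1.59, -1.66 and -1.63 in controls and -2.15, -1.90 and -2.90 with paraoxon, again with no overlap, and -2.22, -2.24 and -1.59 with mipafox. The paraoxon log2 fold changes were -0.55 (SE 0.23, adjusted p = 0.35) and -0.69 (SE 0.27, adjusted p = 0.31), and those of mipafox -0.50 (SE 0.23) and -0.39 (SE 0.27). Paraoxon C was the lowest array of both probes. In the block fit the paraoxon values were -0.37 (95% interval -1.37 to 0.63) and -1.0 (-2.13 to 0.14).

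SYP was near background throughout. It read -6.66, -6.91 and -6.83 in controls, -6.77, -6.98 and -7.11 with paraoxon and -7.70, -6.59 and -6.19 with mipafox, the first of these mipafox values on slide 1. The log2 fold changes were -0.16 (SE 0.33) and -0.03 (SE 0.33). The block fit gave -1.48 (SE 0.29) and -0.91 (SE 0.23). The probe passed the filter for testing only through the controls, whose arrays all detected it. Its values below control are therefore given as descriptions, since the filter itself favoured a high control level. Mipafox A, the mipafox array of slide 1, was the lowest reading of the 9.

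The synaptogyrins, relatives of synaptophysin, held both extremes of spread. SYNGR1 probe A_33_P3379091 moved least of the 88 over the 9 arrays, between -2.00 and -1.73. SYNGR4 moved most, reading -0.43, -1.74 and -2.87 in controls, -0.14, -2.58 and -0.31 with paraoxon, and -0.26, -0.55 and -3.48 with mipafox. Each treatment held both high and low arrays, and the log2 fold changes of 0.67 (SE 0.98) and 0.25 (SE 0.98) were smaller than their standard errors. SYNGR2, a ubiquitous synaptogyrin, gave -0.13 (SE 0.27) with paraoxon, and 0.82 (SE 0.31, adjusted p = 0.61) with slide as a block.

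**Figure D4:**
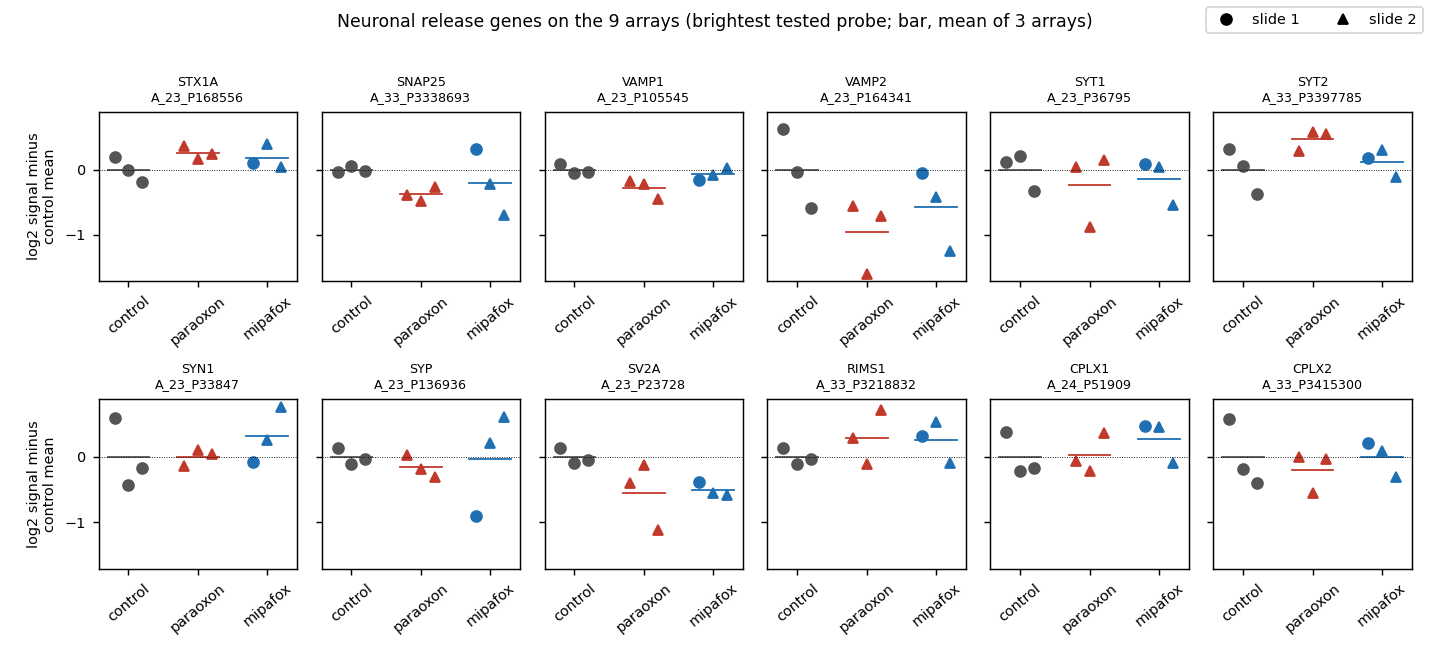
Log2 signal of 12 neuronal release genes on each of the 9 arrays minus the mean of the 3 controls (vertical axis), for the brightest tested probe of each gene. Circles lie on slide 1, triangles on slide 2, and bars are means of 3 arrays. All exposed arrays of SV2A lie below the control arrays, and the SYP array on slide 1 among the mipafox arrays stands 0.91 below the control mean.

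Munc18 and other syntaxin-binding proteins stood at a median of -0.23 (log2 fold change) with each compound, over 9 probes. STXBP2, the Munc18 of platelets and lymphocytes, read -1.72, -2.38 and -2.15 in controls and -2.61, -2.59 and -2.78 with paraoxon. With mipafox it read -2.28, -2.06 and -1.57. Its paraoxon arrays lay below the controls, at -0.58 (SE 0.22, adjusted p = 0.30), and at -1.04 (SE 0.37, adjusted p = 0.61) with slide as a block.

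STXBP4, which binds syntaxin 4 in insulin-responsive cells, gave -0.33 (SE 0.15) and -0.36 (SE 0.15, adjusted p = 0.71) on A_23_P375566, with all mipafox arrays below the controls. STXBP5 (tomosyn), a decoy that holds back SNARE assembly, read -4.87, -5.19 and -5.41 in controls and -6.16, -5.56 and -5.32 with mipafox on A_24_P29595. Its mipafox log2 fold change was -0.52 (SE 0.23, adjusted p = 0.71), and -1.01 (SE 0.24, adjusted p = 0.55) with slide as a block. The second STXBP5 probe, A_23_P82047, gave -0.30 and, with slide as a block, 0.28.

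The reserve pool, clamp and active zone genes gave no call. SYN1 averaged -4.43 ± 0.53 (SD, n = 3) in controls, -4.43 ± 0.13 with paraoxon and -4.11 ± 0.43 with mipafox. SYN2 probe A_33_P3317613 gave 0.16 and 0.26, and 0.71 (SE 0.27) and 0.62 (SE 0.21) with slide as a block, at adjusted p of 0.61 and 0.84. CPLX1 gave 0.03 (95% interval -0.51 to 0.57) and 0.28 (-0.26 to 0.82), and CPLX2 gave -0.19 and 0.00. RIMS1 gave 0.30 (SE 0.23) and 0.26 (SE 0.23). RIMS2, its paralog, parted by probe: A_24_P332816 read -4.94, -5.14 and -5.53 in controls, -5.59, -6.17 and -5.59 with paraoxon and -6.26, -6.48 and -5.77 with mipafox. Its values were -0.58 (SE 0.25, adjusted p = 0.35) and -0.97 (SE 0.25, unadjusted p = 0.0033, adjusted p = 0.43), with no overlap in either comparison. That probe was detected on 8 of 9 arrays, with 2 of the 3 mipafox arrays among them. The other RIMS2 probe gave 0.03 (SE 0.14) and -0.06 (SE 0.14). STX17, an autophagosome SNARE, RIMS3 and STX4, the syntaxin of glucose transporter vesicles, passed the unadjusted test with slide as a block alone, STX17 at -1.28 (SE 0.50) with paraoxon, RIMS3 probe A_33_P3235546 at 0.70 (SE 0.29) and STX4 at 0.43 (SE 0.18) with mipafox.

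With slide as a block limma called 0 member probes in either comparison (0.00343% of all probes for paraoxon and 0.0206% for mipafox). At the unadjusted p it gave 8 with paraoxon (8.02% of all, 9.09% of members) and 7 with mipafox (5.48% of all, 7.95% of members). SYP is in both counts, though it passed the filter for testing only through the controls.

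**Figure D5:**
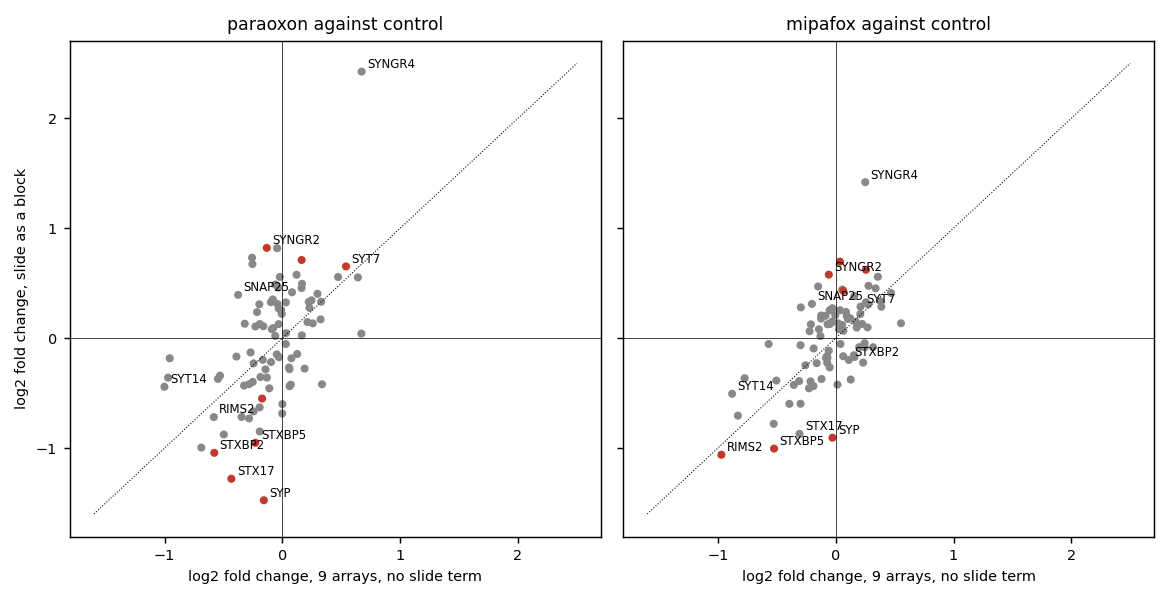
Log2 fold change with slide as a block (vertical axis) against that of the same 9 arrays with no slide term (horizontal axis) for the 88 member probes. Red marks an unadjusted p under 0.05 with the block, and the dotted line marks equal values. SYT7 stays near the line with paraoxon, while SYP, STX17 and SYNGR2 leave it. SYP was near background and passed the filter for testing only through the controls.

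Within slide 2 the compounds could be compared on shared glass, with 3 paraoxon and 2 mipafox arrays. None of the 88 member probes passed the adjusted test (0% of all, smallest adjusted p of a member 0.95), and 3 passed the unadjusted one (3.41%, beside 3.25% of all probes). Among those were STXBP2 at -0.84 (unadjusted p = 0.0063) and SYP at -0.57 (unadjusted p = 0.032), both lower with paraoxon than with mipafox. SYP was near background and was not detected on every array of slide 2. The doses differed, 1 µM and 5 µM, so this sets the exposures side by side and not the compounds at 1 dose. The median over the 88 was -0.01, against 0.05 for all probes. Within slide 1, mipafox A lay a median of 0.07 above the control mean over the members (0.06 over all probes), with members from -1.06 (RIMS2) to 1.42 (SYNGR4). The mipafox arrays of slide 2 lay a median of -0.03 from mipafox A.

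The partners of these genes outside the name rule were read from 5 lists, in which 80 genes had a tested probe, with 111 tested probes in all. Other listed genes, such as SLC17A6, SLC18A1 and RPH3A, had no probe that passed the filter. None of the 111 passed the adjusted test in limma. At the unadjusted p, 14 did with paraoxon (12.6%, beside 13.3% of all probes), 5 of them higher, and 6 with mipafox (5.41%, beside 6.96% of all probes), 2 of them higher. Of the SNARE disassembly factors, NAPA (alpha-SNAP) gave -0.65 (SE 0.20, adjusted p = 0.21) with paraoxon and NAPB (beta-SNAP, the neuronal form) 0.34 (SE 0.13, adjusted p = 0.30). NAPG (gamma-SNAP) gave -0.68 (SE 0.18, adjusted p = 0.15) on A_23_P141770, where the block fit gave -0.07 and mipafox -0.62 (SE 0.18, adjusted p = 0.49), and 0.06 (SE 0.20) on A_24_P185314, where the block fit gave 0.71. In the block fit with paraoxon, NAPA stood at -0.91 and NAPB at 0.59. NSF, the ATPase they serve, gave 0.18 (SE 0.13) and -0.22 (SE 0.22) on its probes. The lowest of the lists was SLC18A2, the vesicular monoamine transporter VMAT2, at -0.92 (SE 0.19, adjusted p = 0.088) with paraoxon, with -1.46 in the block fit, and at -0.29 (SE 0.19) with mipafox. Of the active zone genes, BSN (bassoon) gave 0.42 (SE 0.17) with paraoxon and 0.22 in the block fit. PPFIA4 gave 0.75 (SE 0.32) with paraoxon but -0.52 in the block fit. RIMBP2 gave 0.41 (SE 0.16) and -0.04 (SE 0.23) on its probes, or 0.21 and 0.48 in the block fit. ERC2 gave -0.40 (SE 0.15) on A_24_P374759 and 0.16 (SE 0.24) on A_24_P205045, or -0.42 and 0.98 in the block fit. With mipafox, ERC2 A_24_P374759 gave -0.60 (SE 0.15, adjusted p = 0.40 in limma). Of the endocytic scaffolds, ITSN1 gave -0.52 (SE 0.15), -0.11 (SE 0.22) and 0.02 (SE 0.19), and ITSN2 gave -0.61 (SE 0.21) and 0.20 (SE 0.24). The other SNAREs (13 genes, 21 probes) gave none at the unadjusted p in either comparison, with medians of -0.09 and -0.03.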

How the data were processed

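RNA of 9 samples was hybridised to 1-colour Agilent arrays. Per the file headers, the authors deposited for each array the Agilent Feature Extraction 10.5.1.1 text, in which the processed signal is an intensity after background correction, and a table of their own log2 values, used as an alternative. Levels are log2 of that signal less the array's 75th percentile (802 to 1590 in signal units), after removing control and outlier spots and averaging repeat spots. Each array detected 65.7% to 73.6% of probes. Precision is limited by having 9 arrays. Probes above background on all arrays of 1 treatment, and with 2 or more values in each, were fitted with limma 3.58.1 in R 4.3.3 (1 mean per treatment over 9 arrays, two-sided, Benjamini-Hochberg over 29134 probes). Calls required both a log2 fold change beyond 1 and an adjusted p under 0.05. The script was tested on simulated data. Named probes were 14 preset neuronal genes, probes at an unadjusted p under 0.05 in either fit, the 5 largest changes per comparison, genes whose probes differed by over 0.5, and the extremes of spread. A few named members are not reported here. Members, lists and rules were chosen with earlier results of these data known. The labels call the replicates biological and the study's methods technical, with all samples handled together, so p-values measure only the spread between these samples, which may be technical. Replicate letters were checked for pairing: deviations of same-letter arrays correlated between -0.60 and 0.57. Promoters were credited to RefSeq (GRCh38.p14), and probe positions are those of the files (hg19).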

Additional observations from a re-analysis of the deposited data

How the results depend on the processing

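Calls among members stayed at 0 in both comparisons under every other normalization, background correction, filter, block and left-out array, with these exceptions. Array weights gave 4 with mipafox, where 3.51% of all probes were called. They were both SYT14 probes, RIMS2 A_24_P332816 and STXBP5 A_23_P82047, not the STXBP5 probe A_24_P29595. Over all probes, the 0% called with paraoxon did not hold in every fit. Fitting only paraoxon and control called 276 probes (0.947%), as did leaving out mipafox A. Array weights called 2.15% with paraoxon. No member was among these paraoxon calls. Relaxed thresholds gave 1 member with paraoxon at an unadjusted p with the fold limit, and 11 and 7 with no fold limit. The weights gave mipafox B 5.40 and mipafox C 0.27, and the mipafox values became -1.14 and -1.12 for the SYT14 probes A_33_P3338634 and A_24_P402415 and -1.17 for RIMS2. The number of members at an unadjusted p under 0.05 with paraoxon was 17 with normexp and quantile normalization (16.2% of all probes), 5 with slide as a random block (7.08% of all) and 24 with array weights (28.5% of all). With an array left out it was between 4 and 14, where all probes gave between 9.2% and 15.3%. It was 5 without control A (12.3% of all), 4 without control B (9.2% of all) and 4 without paraoxon C (9.52% of all). With mipafox the number was 4 with normexp (4.42% of all), 11 with normexp and quantile normalization (8.81% of all) and 43 with array weights (45% of all). With an array left out it ran from 3 without control B (3.76% of all) to 13 without mipafox C (8.39% of all). With slide as a block SNAP25 turned to 0.39 and VAMP4 A_24_P942030 to -0.42 with paraoxon. With the replicate block the counts were 11 and 6 (12.5% and 6.53% of all probes), and it changed no call. No pairing by letter was seen, since 3 of 9 arrays correlated best with their own letter. Each letter's arrays were spread over both slides, so the check cannot tell how the arrays were made. Changes of sign were counted only among named values larger than their SE in both fits. The cause of these shifts was not tested.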

Other observations

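On 12 of the 88 tested member probes (13.6%) the lowest arrays were control C, paraoxon B and mipafox C at once, among them SYNGR4, VAMP2 A_23_P164341 and A_33_P3409886, STX16 A_33_P3332860 and SYT1. Over all tested probes this held for 21.3%. The trio was picked after the values were seen.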
